A study of Bos taurus with 16 samples.

Results

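RNA of the corpus luteum was compared between pregnant cows on days 40-45 of gestation (P40-45, n = 4) and non-pregnant cows on days 10-12 of the estrous cycle (cyclic, n = 4). These are the 8 arrays with those titles among the 16 of the series, which also holds 4 cows on days 20-25 and 4 on days 150-160 of pregnancy. All animals were Japanese Black cows, each array held 1 animal, and the day of insemination counted as day 1. Total RNA was amplified, labelled with Cy3 and hybridised to 1-colour bovine oligonucleotide arrays. Every gland, cyclic or pregnant, was taken from the ovary soon after slaughter. Since glands of days 40-45 had existed for longer, the age of the gland cannot be told apart from the pregnancy itself. The arrays lay on 2 slides with 2 cows of each group on each, and the place of an array on its slide was tied to the group, so place and group cannot be told apart.

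The corpus luteum forms from the ruptured follicle after ovulation and secretes progesterone. In a cycle without conception, prostaglandin F2alpha from the uterus ends its life, and luteal oxytocin takes part in that loop in ruminants. In a pregnant cow the conceptus signals its presence through interferon tau, the gland survives, and its progesterone keeps the uterus in a state that supports the fetus.

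Levels are log2 signals relative to the 75th percentile of the same array, so 0 is the signal of a probe at that percentile, and a difference of 1 is a 2-fold change. Levels of different probes are not compared with each other, although the summed marker levels below add them up. The 75th percentile of signal lay between 2020 and 4288 on the 8 arrays, and 71.9% to 79.6% of their probes were well above background. The P40-45 cows resembled each other closely: a P40-45 array correlated with the others of its group at a mean of 0.985 to 0.987, against 0.969 to 0.978 in cyclic cows, and the median SD over probes was 0.207 in P40-45 glands and 0.303 in cyclic glands. With 4 cows in each group, precision is limited throughout. All 8 luteal cell markers on the array, among them STAR, CYP11A1 and HSD3B1, were well above background on all 8 arrays. One array of days 20-25, replicate 4, stood apart from its group, with a mean correlation of 0.962, and it enters the comparison only through the shared estimate of spread.

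Of 11943 probes tested, limma with slide as a block called 215 at an adjusted p under 0.05 (1.80%), 107 of them higher in P40-45 glands (0.896%) and 108 lower (0.904%). At least a 2-fold change was reached by 145 of these, 66 higher and 79 lower. The P40-45 and cyclic cows did not overlap at 200 of the 215 probes, against 9.67% of all tested probes, and the difference had the same sign on both slides at all 215. The 215 were called from these same arrays, so neither count is separate support for the calls. The median difference over all tested probes was 0.015. A gene symbol was known for 115 of the called probes and not for 100. The count was 58, 67 and 96 without P40-45 replicates 1, 2 and 3, and 97 and 103 without cyclic replicates 2 and 4. It was 139 without replicate 2 and 143 without replicate 1 of days 20-25, and 292 without the array that stood apart.

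**Figure D1:**
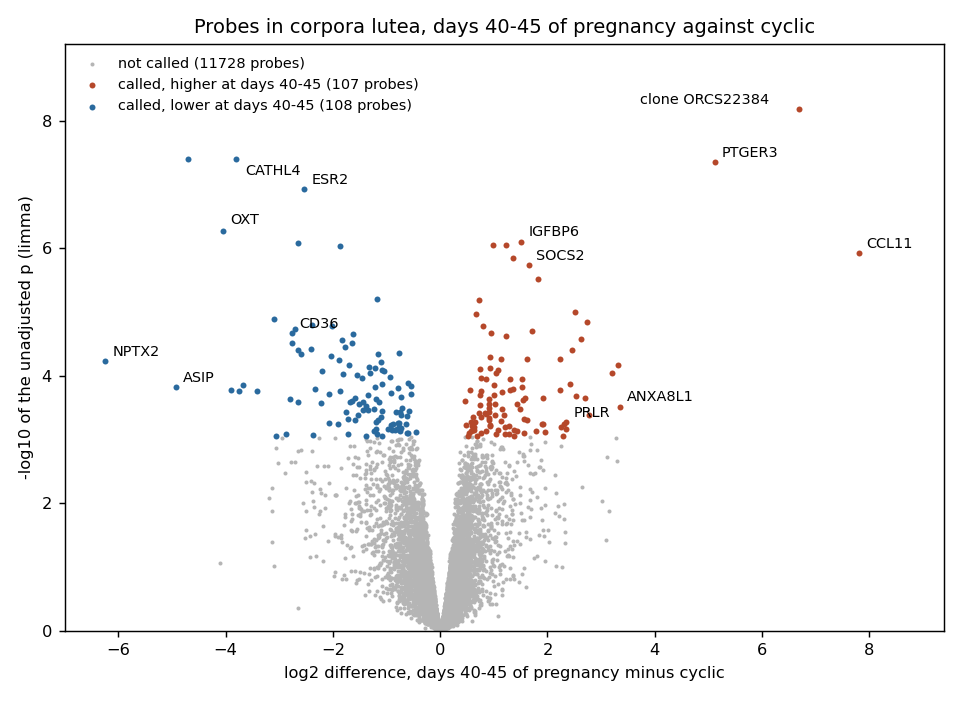
Difference and unadjusted p of every tested probe. The x axis is the log2 difference, P40-45 minus cyclic, and the y axis is -log10 of the limma p; the 107 probes called higher are in red, the 108 called lower in blue and the rest in grey. CCL11, PTGER3 and clone ORCS22384 lie far to the right and NPTX2, ASIP and OXT far to the left.

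The named genes that rose most were those of the chemokine CCL11 and of PTGER3, a receptor of prostaglandin E2. CCL11 attracts eosinophils. Its level was -2.03, 1.05, -2.70 and -1.98 in the P40-45 cows, against -9.39, -9.22, -9.17 and -9.08 in the cyclic cows. It was well above background in all 4 P40-45 glands and in 0 of 4 cyclic glands, where the values stand at the lowest signals of their arrays. The fitted difference was 7.80 (SE 0.95, limma adjusted p = 0.00121), and the rise is best given as at least 45.4-fold. P40-45 replicate 2 lay above the other 3, and without it the rise was at least 25.7-fold. PTGER3 had -0.66, -1.64, -1.56 and -1.499 in P40-45 glands, against -8.05, -6.70, -6.08 and -4.98 in cyclic glands, of which 3 of 4 were well above background. The highest cyclic cow lay far under the lowest P40-45 cow, and the difference was 5.11 (SE 0.47, adjusted p = 0.000134), 34.7-fold. With signals under background raised to it, the difference of PTGER3 was 4.88 (limma adjusted p = 3.8e-05). On slide 1 and slide 2 the differences were 8.82 and 6.79 for CCL11 and 6.23 and 4.00 for PTGER3. Among the other prostaglandin genes, the synthases, transporters and receptors, limma called 0 of the remaining 22, and 1 higher and 3 lower ones had an unadjusted p under 0.05. PTGFR, the receptor through which prostaglandin F2alpha acts on luteal cells, had 4.43 ± 0.07 in P40-45 and 4.06 ± 0.56 in cyclic glands (SD, n = 4 each), a difference of 0.37 that did not pass (adjusted p = 0.382).

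OXT fell; it encodes oxytocin and its carrier neurophysin and is a marker of large luteal cells in ruminants. Its level was 0.79, 1.87, 2.35 and 1.99 in P40-45 cows, against 6.47, 5.64, 5.04 and 6.03 in cyclic cows. The groups lay far apart in every cow, and the difference was -4.05 (SE 0.46, limma adjusted p = 0.00100), 16.5-fold lower in P40-45 glands. It was -4.73 on slide 1 and -3.36 on slide 2. The other called member of the list of hormones and neuropeptides was ASIP, agouti signalling protein, an antagonist of melanocortin receptors. ASIP was not well above background in any P40-45 gland and was so in all 4 cyclic ones. Its levels were -7.42, -7.23, -7.17 and -6.90 in P40-45 cows, against -0.78, -6.63, -0.73 and -0.87 in cyclic cows, at least 24.0-fold lower by group means. Cyclic replicate 2 lay close to the P40-45 cows, and without it ASIP was at least 66.0-fold lower. The call of ASIP (adjusted p = 0.0230) was lost without P40-45 replicate 1, 2 or 3 or cyclic replicate 4, with an adjusted p of up to 0.0645. NPTX2, a secreted neuronal pentraxin, had -8.44, -8.45, -5.87 and -9.18 in P40-45 glands, against -2.49, 1.06, -1.39 and -4.11 in cyclic glands. It was well above background in 1 of 4 P40-45 glands, replicate 3, and in all 4 cyclic glands, and the groups did not overlap. The fitted difference of -6.25 (SE 1.09, adjusted p = 0.0147) thus rests in part on signals under background. It was -4.97 (adjusted p = 0.0151) with those raised to background, and missed the threshold without P40-45 replicate 1 or 2 (adjusted p of up to 0.0529).

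To show which molecules were measured, the probes behind the findings that lead here are given in part, as the first 30 of their 60 bases, 5′ to 3′, copied from the scanner files. The probe of CD36 and a probe described as similar to CD36 antigen are shown because both recorded a fall with different bases: their longest common stretch is 7 bases. Whether the latter measures CD36 was not tested. The probe of clone ORCS22384 is shown because no gene name was found for it, so its bases are its identity.
PTGER3: atttcacagaagcaaggagaggaaggggcc
CCL11: gaagacatcactctcgtaaagcaaaggttt
OXT: ggcccccgataccgtcggagcgcagccctc
CD36: ctttctactcagttgcatacaacttacact
Similar to CD36 antigen: atttcttgctttcttagtcacctcagaaag
clone ORCS22384: aatgtgaattgcagacacattgatcatcga

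Clone ORCS22384 had the smallest p of the comparison. Its level was 4.998, 5.23, 4.78 and 5.30 in P40-45 cows, against 0.33, -2.72, -2.19 and -1.90 in cyclic cows. All 8 glands were well above background and the P40-45 cows lay close together, so the difference of 6.70 (SE 0.53, limma adjusted p = 7.9e-05) was measured on both sides. It amounted to 104-fold. The longest stretch it shared with the CCL11 probe was 5 bases.

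Several genes that handle fatty acids fell in P40-45 glands. In the list of fatty acid uptake and lipid storage, 4 of 21 tested genes were lower and 0 higher, against 1.93% called of the 5796 genes tested (1.02% lower and 0.914% higher), and the median difference was -0.35, against 0.0013 over all genes. Over all genes 50.2% of differences were positive. These shares also stand beside the lists that follow. Lists and members were chosen with earlier results of these data known, so no list share is a test of its list. ANGPTL4, a secreted inhibitor of lipoprotein lipase, had -0.51, 1.12, 0.31 and 0.33 in P40-45 glands, against 2.40, 4.19, 3.72 and 3.16 in cyclic glands. No cow of one group reached the other, and the difference was -3.06 (SE 0.72, adjusted p = 0.0493). CD36, which takes up long-chain fatty acids and is also a scavenger receptor of macrophages and capillary endothelium, had -2.86, -2.43, -2.26 and -3.21 in P40-45 glands, against 0.19, 0.76, -1.09 and 0.42 in cyclic glands. The fall was 2.76 on the log2 scale (SE 0.44, limma adjusted p = 0.00921). A probe without a gene symbol, described as similar to CD36 antigen, gave -2.77 (adjusted p = 0.0108).

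CPT1B and SLC25A20, which take part in the carnitine shuttle of fatty acids into mitochondria, were also lower. CPT1B, a carnitine palmitoyltransferase best known from muscle, changed by -1.08 (SE 0.26, limma adjusted p = 0.0498). SLC25A20, the carnitine-acylcarnitine carrier, listed with the solute carriers, had 0.41, 0.50, 0.30 and 0.00 in P40-45 glands, against 1.34, 1.05, 1.69 and 1.55 in cyclic glands, with narrow groups that did not overlap (difference -1.11, SE 0.19, adjusted p = 0.0150). PLAAT1, which acts as a phospholipase and as an acyltransferase, had a difference of -3.67 (SE 0.70, adjusted p = 0.0227). Other genes of the list gave values that did not pass, among them FABP4, a fatty acid carrier of capillaries and adipocytes, at -1.96 (adjusted p = 0.121), LPL at 0.52, FASN at 0.32, PPARG at -0.59 and CPT2, the last enzyme of the carnitine shuttle, at -0.35. CD36 and SLC25A20 kept their call without any 1 array. ANGPTL4 and CPT1B lost it without any 1 of 12 of the 16 arrays, with adjusted p of up to 0.142 and 0.129, and PLAAT1 without P40-45 replicate 1 or 2 or cyclic replicate 2 or 4, with up to 0.0748. Leaving out 1 array put the number called in the list between 1 and 4.

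**Figure D2:**
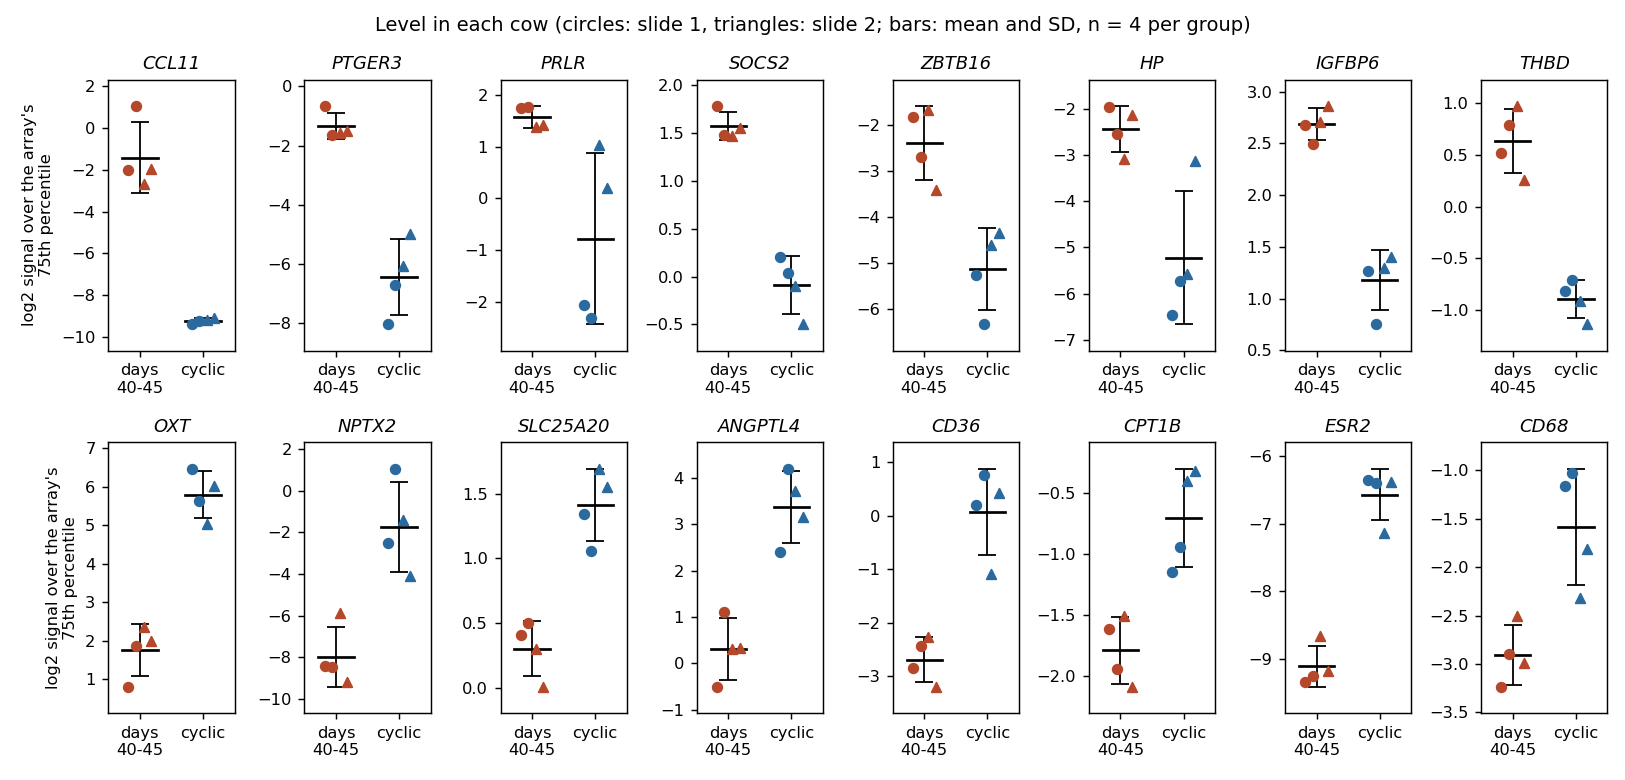
Level of 16 genes in each cow, as log2 signal over the 75th percentile of the array, with P40-45 cows in red on the left of each panel and cyclic cows in blue on the right. Circles are slide 1 and triangles slide 2, and bars show mean and SD (n = 4 per group). The groups overlap in none of the 16 panels, against no overlap at 9.67% of all tested probes. The genes shown were called on these arrays, and most were named for groups without overlap, so this is not a separate result.

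Among hormone receptors, 2 of 24 tested genes were higher and 1 was lower, with a median difference of 0.10. PRLR, the prolactin receptor, which also binds placental lactogen, had 1.75, 1.76, 1.37 and 1.41 in P40-45 cows, against -2.06, -2.30, 1.03 and 0.20 in cyclic cows. The 4 P40-45 glands were alike and the cyclic ones were not: the cyclic cows of slide 1 lay far below those of slide 2, and the difference was 3.93 on slide 1 and 0.77 on slide 2. The joint value was 2.35 (SE 0.52, limma adjusted p = 0.0407). SOCS2, a suppressor of cytokine signalling that prolactin and growth hormone receptors induce in other tissues, had 1.78, 1.48, 1.47 and 1.56 in P40-45 glands, against 0.21, 0.04, -0.10 and -0.50 in cyclic glands. Both groups were narrow, and the rise of 1.66 (SE 0.21, adjusted p = 0.00157) was 1.51 on slide 1 and 1.81 on slide 2. RARB, a retinoic acid receptor, rose by 1.96 (SE 0.45, adjusted p = 0.0471).

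ESR2, estrogen receptor beta, was at -9.34, -9.25, -8.66 and -9.18 in P40-45 glands, against -6.35, -6.40, -7.14 and -6.38 in cyclic glands. It was well above background in 0 of 4 P40-45 and 3 of 4 cyclic glands, so the fall was at least 1.21-fold (limma adjusted p = 0.000288). The fitted difference of -2.54 rests on signals under background, and the call was lost where such signals were raised to background. The receptor of luteinizing hormone, LHCGR, had -2.30, -2.58, -1.82 and -2.03 in P40-45 cows, against -0.31, -2.62, -1.38 and -1.26 in cyclic cows, and did not pass (difference -0.79, adjusted p = 0.371). The calls of PRLR and RARB were lost without any 1 of 10 and of 14 arrays, with adjusted p of up to 0.125 without P40-45 replicate 1 and 0.121 without cyclic replicate 2; SOCS2 kept its call throughout.

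Genes of progesterone synthesis did not pass the test. Of 16 tested, limma called 0, and 3 higher and 2 lower genes had an unadjusted p under 0.05; the median difference was 0.094. STAR, which moves cholesterol into mitochondria, was at 7.58 ± 0.15 in P40-45 and 7.37 ± 0.55 in cyclic glands. CYP11A1, the enzyme that cleaves the side chain of cholesterol, was at 6.48 ± 0.26 in P40-45 and 6.41 ± 0.24 in cyclic glands (SD, n = 4 each). Their differences, 0.20 (SE 0.17) and 0.07 (SE 0.10), were small beside the spread of the cyclic cows. HSD3B1, which makes progesterone from pregnenolone, was at 7.44 ± 0.36 in P40-45 and 7.04 ± 0.43 in cyclic glands and differed by 0.40 (SE 0.15, adjusted p = 0.181). With normexp background and quantile normalization this difference passed, at 0.44 (adjusted p = 0.0350, the lowest of its alternatives, which reached 0.774). The cofactor gene CYB5A, cytochrome b5, had one called probe, with -0.78 (SE 0.15, adjusted p = 0.0231). Its brighter probe, which stands for the gene in the list, gave 0.09 (adjusted p = 0.862), so the 2 probes disagree. In the list of cholesterol synthesis, uptake and export limma called 0 of 18 genes and 0 had an unadjusted p under 0.05.

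In the list of granulocyte markers, which here includes antimicrobial peptides, 5 of 17 tested genes were lower and 0 higher. Of the 17, 15 were negative, 11 were lower at an unadjusted p under 0.05, and the median difference was -1.06. Over all genes 1.93% were called and 50.2% of differences were positive. The share of all genes at an unadjusted p under 0.05 is not given here. CATHL4, a cathelicidin stored in neutrophil granules, had -9.42, -9.25, -8.69 and -9.18 in P40-45 cows, against -5.48, -4.90, -6.45 and -4.50 in cyclic cows. The P40-45 values are the lowest signals of their arrays and not well above background. CATHL4 was at least 2.84-fold lower in P40-45 glands. Its fitted difference of -3.80 (limma adjusted p = 0.000134) rests on signals under background. With those raised to background it was -1.51 (adjusted p = 0.0394). CATHL1 and CATHL3, also cathelicidins, were at least 2.58-fold and 1.08-fold lower (adjusted p = 0.00871 and 0.0126). The bound of CATHL3 disappeared without cyclic replicate 2 or 4. DEFB4A, a beta-defensin gene, was at least 2.76-fold lower (adjusted p = 0.0235), a bound of 1.41 without cyclic replicate 1 and of 4.86 without cyclic replicate 3. BNBD-5, another beta-defensin gene, changed by -2.66 (limma adjusted p = 0.00100). The gene called BNBD-9-LIKE in the files, which is not in the list, changed by -2.87 (adjusted p = 0.0482). Each was well above background in 2 of 4 P40-45 and all 4 cyclic glands. The probes of DEFB4A and BNBD-5 have 19 bases in common, in capitals here, and whether each also binds RNA of the other gene was not tested.
DEFB4A: gtaggCATGAGACAGATTGGCACCtgtttc
BNBD-5: tgccctggcaaCATGAGACAGATTGGCACC

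The other 12 tested genes of the list did not pass. They ranged from -2.24 for PGLYRP1, a peptidoglycan recognition protein of neutrophil granules (adjusted p = 0.156), to 0.18 for FCAR. Among them were the cathelicidins CATHL5 at -1.496, CATHL2 at -0.94 and CATHL6 at -0.24, the defensins LAP at -1.06 and EBD at -0.57, and S100A8, a calcium-binding protein of neutrophils, at 0.02. The summed level of the 5 granulocyte markers on the array was 0.210 to 0.653 in P40-45 glands and 0.168 to 1.00 in cyclic glands, in units of the 75th percentile, so it overlapped. In whole tissue, fewer cells of a type and less RNA per cell cannot be told apart. Leaving out 1 array put the number of granulocyte genes called between 4 and 6. DEFB4A lost its call without P40-45 replicate 1 or 2 or cyclic replicate 2 and BNBD-9-LIKE without any 1 of 13 (adjusted p of up to 0.0816 and 0.128, both without P40-45 replicate 1), and the calls of CATHL1, CATHL3, DEFB4A and BNBD-9-LIKE were lost where signals under background were raised to it.

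In the list of B and plasma cell markers 3 of 7 genes were lower and 0 higher, with a median difference of -0.97. Over all genes 1.02% were called lower and 0.914% higher. IGG1C, an immunoglobulin heavy chain constant region, had -3.37, -4.78, -4.33 and -4.19 in P40-45 cows, against -0.60, -1.62, -2.64 and -0.61 in cyclic cows. The difference was -2.80 (SE 0.56, limma adjusted p = 0.0262). JCHAIN, which joins immunoglobulin units, had -2.30, -3.32, -2.996 and -3.29 in P40-45 glands, against -0.87, -0.24, -2.34 and -1.64 in cyclic glands. One P40-45 cow thus lay just above the lowest cyclic cow, and the difference was -1.70 (SE 0.30, adjusted p = 0.0161). CD38, an ectoenzyme of plasma cells, was well above background in 0 of 4 P40-45 and 3 of 4 cyclic glands and at least 1.26-fold lower (adjusted p = 0.0493), a bound of 1.91 without cyclic replicate 3 and none without cyclic replicate 4. Values for CD79A and XBP1, other genes of B lineage cells, were 0.05 and 0.23 and did not pass. The count of 3 dropped to as few as 0 with 1 array left out, since CD38 lost its call without any 1 of 14 arrays (adjusted p of up to 0.140 without P40-45 replicate 2), IGG1C without any 1 of 7 (0.0904) and JCHAIN without P40-45 replicate 2 (0.0503).

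Of 26 macrophage and dendritic cell genes, 2 were called, both lower, 22 had a negative difference and the median was -0.55. Over all genes 1.93% were called and 50.2% of differences were positive. CD68, a lysosomal protein of macrophages, had -3.24, -2.89, -2.50 and -2.99 in P40-45 glands, against -1.17, -1.03, -2.32 and -1.82 in cyclic glands, without overlap (difference -1.32, SE 0.24, limma adjusted p = 0.0169). FCGR1A, a high-affinity receptor for immunoglobulin G, changed by -1.44 (SE 0.30, adjusted p = 0.0323). The summed level of the 5 macrophage markers was 1.06 to 1.39 in P40-45 glands and 1.91 to 3.71 in cyclic glands, while that of the 10 endothelial markers was 18.2 to 23.5 in P40-45 glands and 12.3 to 19.9 in cyclic glands. Whether cell numbers had a part in these differences was not tested. CD68 lost its call without P40-45 replicate 1 or 2 (adjusted p of up to 0.0565) and FCGR1A without any 1 of 6 (up to 0.106), and leaving out 1 array put the number called in the list between 0 and 5. T and NK cell markers had 0 of 18 called by limma and 0 with an unadjusted p under 0.05, and CD4 was not above background on any of the 8 arrays. Among interferon-stimulated genes limma called 0 of 23; 1 higher and 4 lower ones had an unadjusted p under 0.05.

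Of 19 chemokine ligands, CCL11 was the one called higher and XCL1, lymphotactin, the one called lower. XCL1 had -3.97, -4.25, -2.61 and -1.80 in P40-45 cows, against 0.91, 1.72, -1.35 and -0.25 in cyclic cows. The difference of -3.42 (SE 0.67, limma adjusted p = 0.0232) was -5.43 on slide 1 and -1.41 on slide 2, and the call was lost without P40-45 replicate 1 or 2 or cyclic replicate 2 (adjusted p of up to 0.0829). The median of the list was -0.74, with 14 of 19 ligands negative; it was -0.026 on slide 1 and -1.41 on slide 2. CXCL5 and CXCL10, attractants of neutrophils and of T cells, had -2.70 and -2.35 and did not pass (adjusted p = 0.0765 and 0.103).

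Complement and coagulation genes held several of the rises. C1R, a protease of the first complement component, and CD59, a membrane inhibitor of complement lysis, were the 2 of 19 complement genes called, both higher. C1R had 1.29, 1.91, 1.60 and 1.63 in P40-45 glands, against 0.84, 0.72, 0.68 and 0.75 in cyclic glands, and the difference was 0.86 (SE 0.18, limma adjusted p = 0.0351). CD59 rose by 0.90 (SE 0.19, adjusted p = 0.0310). THBD, thrombomodulin, an anticoagulant receptor of endothelium, had 0.52, 0.79, 0.97 and 0.26 in P40-45 cows, against -0.81, -0.71, -0.92 and -1.14 in cyclic cows. All cyclic glands lay below all P40-45 glands, and the difference was 1.53 (SE 0.29, adjusted p = 0.0230). ANXA8L1, an annexin listed with anticoagulant proteins, was well above background in all 4 P40-45 and 2 of 4 cyclic glands. Its fitted difference was 3.35 (SE 0.70, adjusted p = 0.0305), or 2.77 (adjusted p = 0.0168) with signals under background raised to it. SERPINA1, alpha-1 antitrypsin, was well above background in all 4 P40-45 and 0 of 4 cyclic glands and was at least 2.18-fold higher (adjusted p = 0.0102).

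F7, coagulation factor VII, fell by 1.17 on the log2 scale (SE 0.26, limma adjusted p = 0.0390). That made 3 higher and 1 lower of 35 coagulation and serpin genes, whose median was -0.07. HP, haptoglobin, an acute phase protein that binds hemoglobin, had -1.97, -2.55, -3.09 and -2.14 in P40-45 glands, against -6.46, -5.72, -5.57 and -3.13 in cyclic glands. The highest cyclic gland came close to the lowest P40-45 gland, and the difference was 2.78 (SE 0.60, adjusted p = 0.0351). Calls were lost without any 1 of 4 arrays for THBD, 5 for CD59, 6 for ANXA8L1, 7 for C1R, 8 for HP and 11 for F7, with adjusted p of up to 0.0725, 0.106, 0.093, 0.0981, 0.113 and 0.107 in that order. The call of SERPINA1 was lost where signals under background were raised to it.

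The growth factor genes moved both ways. IGFBP6, a binding protein that prefers insulin-like growth factor 2, had 2.68, 2.49, 2.71 and 2.86 in P40-45 glands, against 1.27, 0.75, 1.30 and 1.40 in cyclic glands. The groups were narrow and far apart, with a difference of 1.51 (SE 0.18, limma adjusted p = 0.00100) that was 1.58 on slide 1 and 1.44 on slide 2. IGFBP5, another binding protein of the family, changed by -2.06 (SE 0.41, adjusted p = 0.0246), and no other of the 12 tested genes of the system was called. FGF1, a fibroblast growth factor, rose by 1.23 (SE 0.20, adjusted p = 0.00967). FGFR2, one of the receptors of this family, had 2 probes of identical sequence, which gave -1.24 (adjusted p = 0.0315) and -1.23 (adjusted p = 0.340). FST, follistatin, which binds activin, gave 1.36 (adjusted p = 0.0232) on its called probe and 1.11 (adjusted p = 0.0617) on its brighter one. IGFBP5 lost its call without any 1 of 5 arrays (adjusted p of up to 0.0861), FGFR2 of 7 (up to 0.0949) and FST of 4 (up to 0.0792), while IGFBP6 and FGF1 kept theirs.

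Further called genes belonged to lists with few calls. Of the 33 tested epithelial and mesothelial membrane genes, UPK1B, a uroplakin, MAL, a protein of myelin and apical membranes, and CLDN10, a tight junction claudin, were higher and PERP, a desmosome protein, was lower. UPK1B had 0.44, 1.29, 1.08 and 1.28 in P40-45 cows, against -2.89, -2.27, -1.82 and -1.72 in cyclic cows (difference 3.20, SE 0.58, limma adjusted p = 0.0176). The groups were separated by more than the range of either. CLDN10 was well above background in 2 of 4 P40-45 and 0 of 4 cyclic glands and at least 1.16-fold higher (adjusted p = 0.00676), a bound that disappeared without P40-45 replicate 1. Its call was lost with both normexp background settings and where signals under background were raised to it (0.57, adjusted p = 0.351). The summed level of the 7 mesothelial and epithelial markers on the array was 10.8 to 14.5 in P40-45 glands and 10.2 to 23.4 in cyclic glands. MAL and PERP (2.28 and -1.71, adjusted p = 0.0493 and 0.0482) lost their calls without any 1 of 12 arrays each, with adjusted p of up to 0.141 and 0.15, and UPK1B without P40-45 replicate 2 (0.0565).

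ZBTB16, a zinc finger repressor that glucocorticoids and progesterone induce in other tissues, had -1.83, -2.69, -1.68 and -3.41 in P40-45 glands, against -5.27, -6.33, -4.60 and -4.34 in cyclic glands. It rose by 2.73 (SE 0.42, limma adjusted p = 0.00825), by 3.54 on slide 1 and 1.93 on slide 2. GJA5, connexin 40, a gap junction protein of arteries, rose by 1.58 (SE 0.32, adjusted p = 0.0262). AOX1, aldehyde oxidase, had 3.61, 3.12, 3.42 and 3.50 in P40-45 glands, against 0.94, 1.78, 1.97 and 1.63 in cyclic glands, and rose by 1.83 (SE 0.24, adjusted p = 0.00243). ADAMTSL3, a matrix protein, rose by 2.46 (adjusted p = 0.0126), and B3GAT2, a glucuronyltransferase well above background in 4 of 4 P40-45 and 3 of 4 cyclic glands, by 3.32 (adjusted p = 0.0161). MIC1, a stress-induced relative of MHC class I genes, rose by 2.23 (adjusted p = 0.0232). Smaller rises were those of SLC26A10 at 1.63, SLC25A21 at 1.91, ZNF503 at 0.93, KCND1 at 0.74 and DAP at 0.48. SOST, an inhibitor of Wnt signals, was called on one probe (1.79, adjusted p = 0.0456) and had a difference of 0.00043 on the other.

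TNFAIP6, a hyaluronan-binding protein of the ovulating follicle, had -0.41, -0.30, -0.69 and 0.13 in P40-45 glands, against 2.63, 0.80, 1.46 and 1.92 in cyclic glands, and fell by 2.02 on the log2 scale (SE 0.31, limma adjusted p = 0.00825). AURKB, a kinase of dividing cells, changed by -1.83 (SE 0.30, adjusted p = 0.0104) and was the single call among 35 mitotic and cell cycle genes, 27 of which were negative with a median of -0.34. That median was -0.85 on slide 1 and 0.16 on slide 2. MYB, a transcription factor of progenitor cells, was at least 2.04-fold lower (adjusted p = 0.00825), TAFA4, a secreted peptide, at least 2.13-fold lower (adjusted p = 0.0276), S100A7, well above background in 3 of 4 P40-45 and 4 of 4 cyclic glands, changed by -2.22 (adjusted p = 0.0278) and HSPB8, a small heat shock protein, by -1.67 (adjusted p = 0.0276). The calls of MYB and TAFA4 were lost where signals under background were raised to it (-1.03 and -1.09, adjusted p = 0.0554 and 0.118). Calls in these last groups that were lost with 1 array left out were those of GJA5, B3GAT2, MIC1, SLC25A21, ZNF503, KCND1, DAP, SOST, TAFA4, S100A7 and HSPB8, with the highest adjusted p, 0.137, for DAP without P40-45 replicate 1. Oxidative phosphorylation subunits had 0 of 66 called by limma, with 57 negative and a median of -0.18. Over all genes 50.2% of differences were positive and the median was 0.0013. Collagens, laminins and matrix proteins had 0 of 48 called, with 2 higher and 4 lower ones at an unadjusted p under 0.05.

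**Figure D3:**
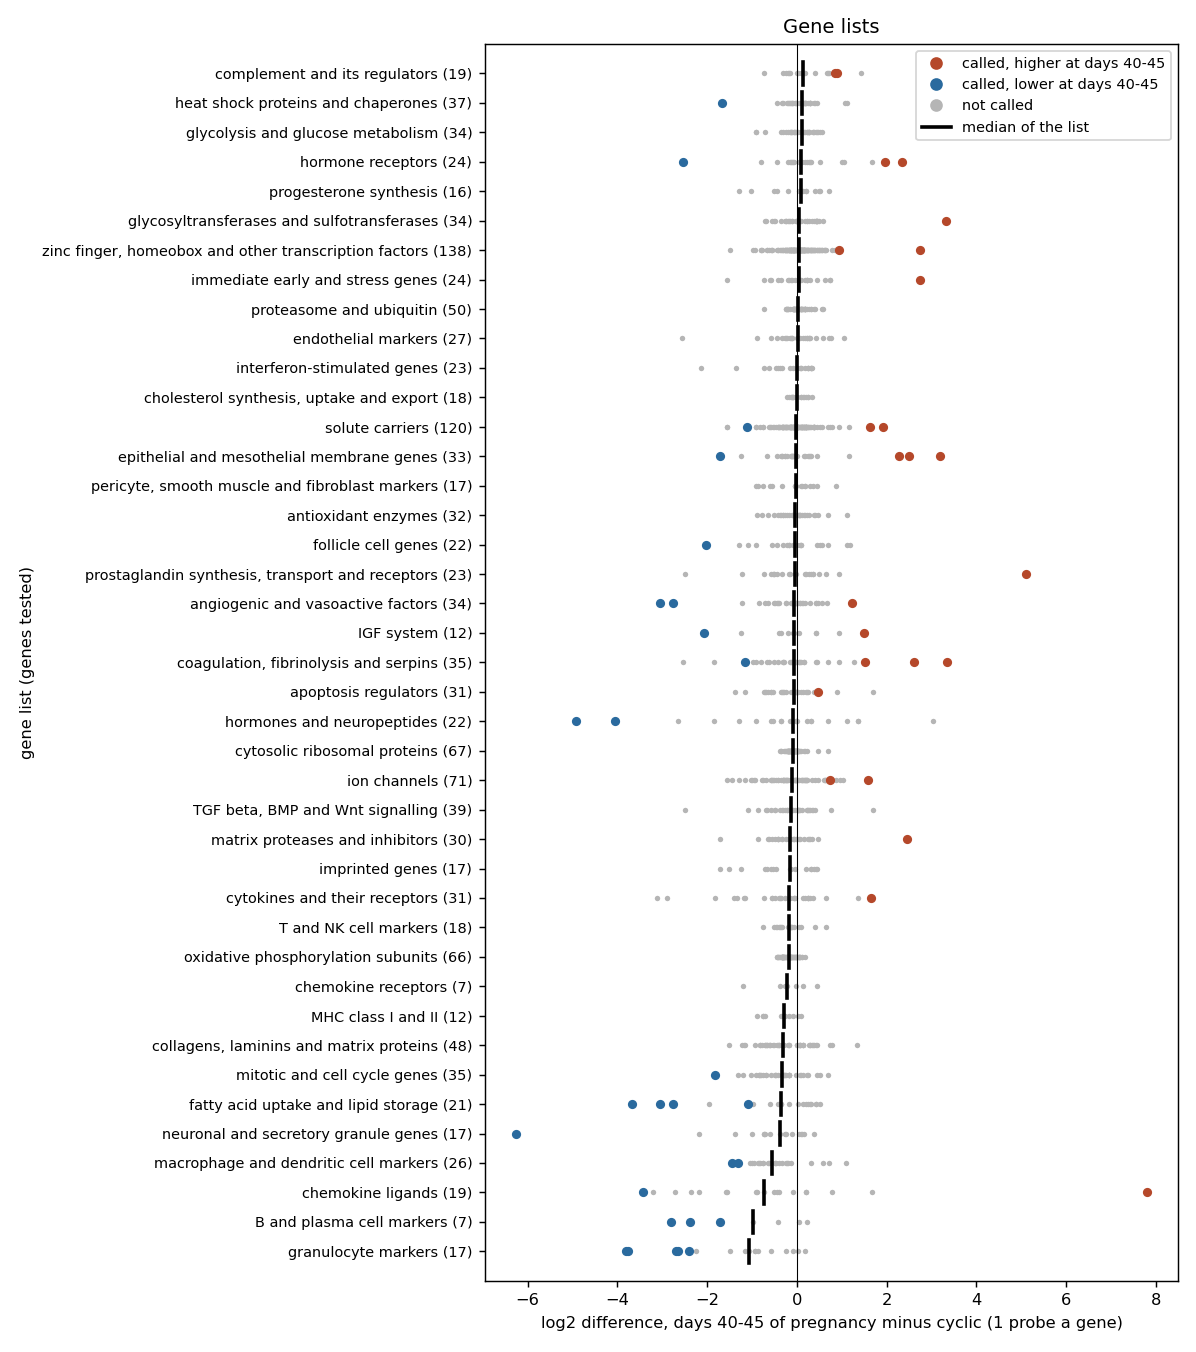
Log2 difference, P40-45 minus cyclic, of each tested gene in the lists with at least 7 genes tested, 1 probe a gene. Each row is a list with its number of genes, red and blue points are genes called higher and lower, grey points were not called, and the black bar is the median of the list; the lists at the bottom, granulocyte and B and plasma cell markers, have medians of -1.06 and -0.97.

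**Figure D4:**
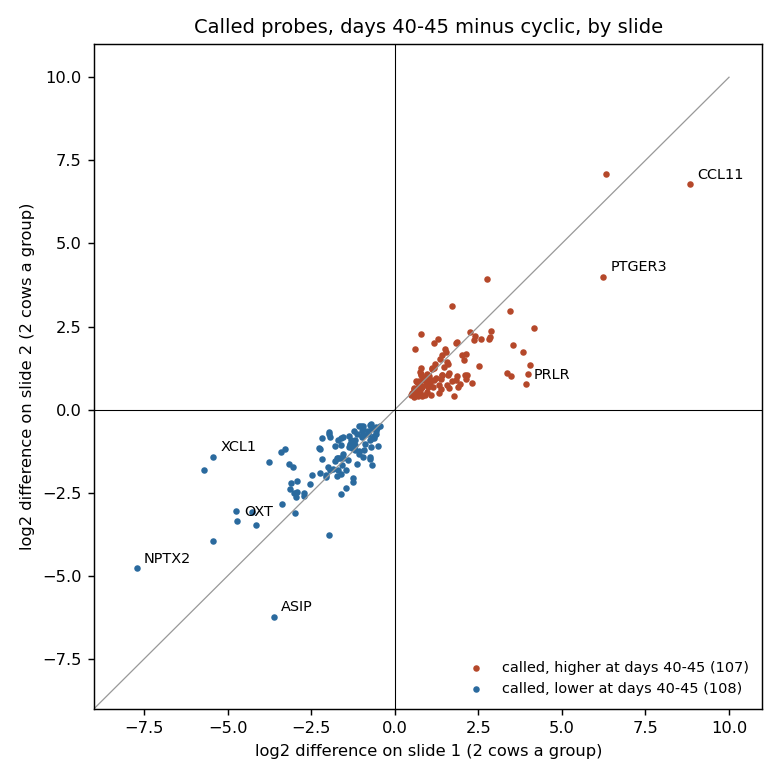
Log2 difference of the 215 called probes on slide 1 (x axis) and slide 2 (y axis), 2 cows a group on each, with the line of equality. All points lie in the 2 quadrants of equal sign, and PRLR and XCL1 lie well off the line. The probes were called from both slides together, so the equal sign is not a separate result.

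The levels on days 40-45 were also set against the neighbouring stages of pregnancy, in the same fit. Against days 20-25, 7 probes were called on days 40-45 (0.0586%), and days 150-160 differed from days 40-45 at 13 (0.109%). OXT averaged 5.80 ± 0.61 in the cyclic group, 5.02 ± 0.44 on days 20-25, 1.75 ± 0.67 on days 40-45 and -2.17 ± 0.98 in the glands of days 150-160 (SD, n = 4 each). The step from days 20-25 to days 40-45 was -3.27 (limma adjusted p = 0.0356), the next one was -3.92 (adjusted p = 0.00887), and days 20-25 did not differ from cyclic beyond the threshold (adjusted p = 0.409). PTGER3 averaged -6.45 ± 1.28 in the cyclic group, -4.57 ± 0.61 on days 20-25, -1.34 ± 0.46 on days 40-45, and -0.01 ± 0.51 on days 150-160. For PTGER3 days 40-45 exceeded days 20-25 by 3.23 (adjusted p = 0.0363), and days 150-160 did not differ from days 40-45 beyond the threshold (1.33, adjusted p = 0.330).

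CCL11 averaged -9.22 ± 0.13 in the cyclic group, -6.07 ± 2.21 on days 20-25, -1.42 ± 1.68 on days 40-45 and 2.33 ± 0.56 on days 150-160, and neither step next to days 40-45 passed (limma adjusted p = 0.149 and 0.174). ESR2 was well above background in 0 of 4 glands in each of the 3 pregnant groups, so no difference between them is given. CLDN10, above background in 4 of 4 glands on days 150-160 and 2 of 4 on days 40-45, was higher on days 150-160 by 2.99 (adjusted p = 0.00887). The other genes named up to this point were not called between days 40-45 and either neighbour. For clone ORCS22384 the levels were -1.62 ± 1.34 in the cyclic group, 5.54 ± 0.59 on days 20-25, 5.08 ± 0.24 on days 40-45 and 4.64 ± 0.63 on days 150-160.

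**Figure D5:**
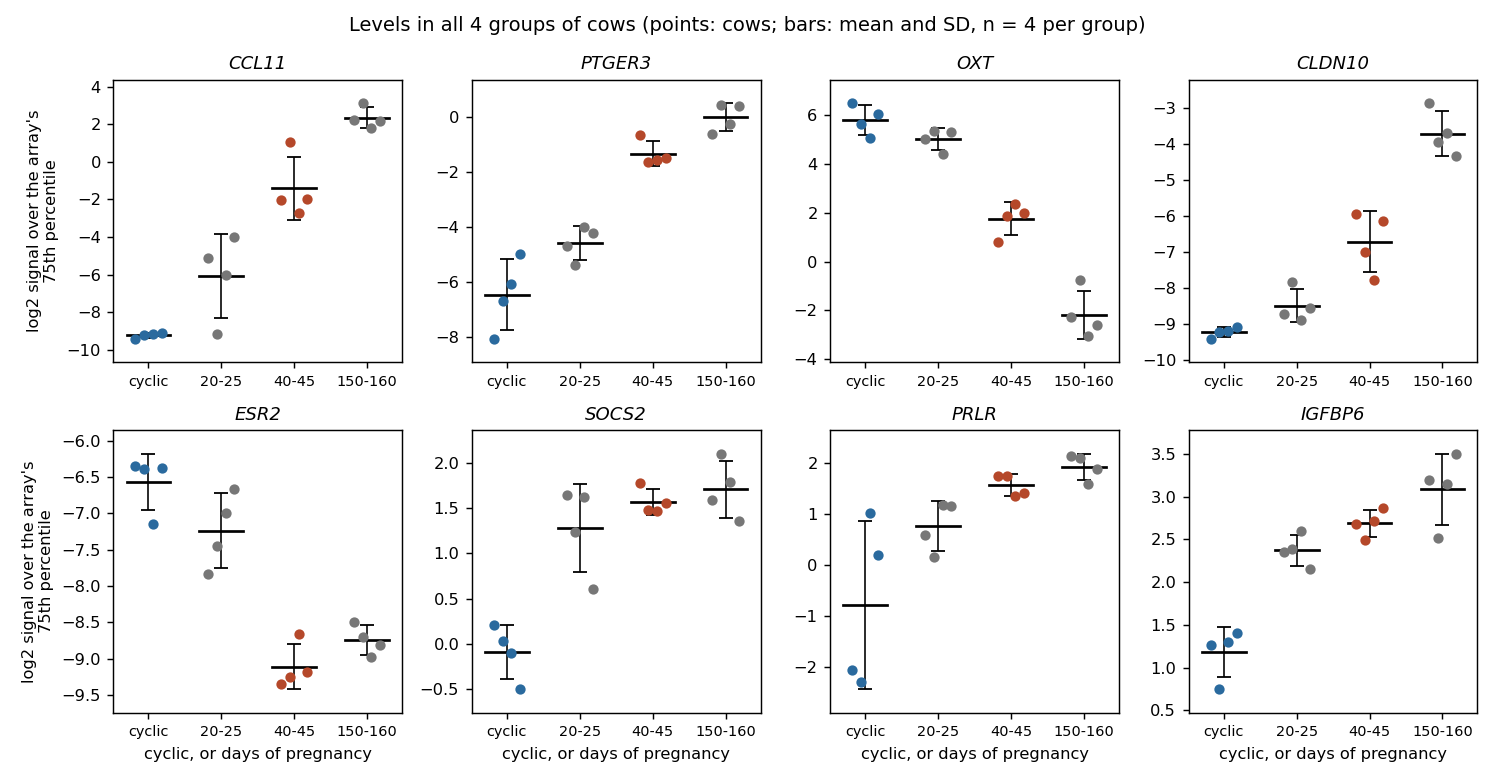
Levels of 8 genes in all 4 groups in order of time, as log2 signal over the 75th percentile of the array; points are cows and bars are mean and SD (n = 4 per group). OXT keeps a high level on days 20-25 and is lower on days 40-45 and again on days 150-160.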

How the data were processed

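Scanner files of 16 arrays hold the deposited intensity of each spot: per the file headers the processed signal is the mean signal after background and spatial detrending, and per the submitters' processing notes it was made with Agilent Feature Extraction 9.5. The deposited log2 value table equals log2 of these signals minus a constant per array near its 75th percentile, to within 0.0046 (column medians -3.18 to -2.98), and served as an alternative. Of 15744 spots an array, 536 controls were left out, which left 15208 probes. Over all arrays 36 outlier spots were set to missing. Probes well above background without an outlier flag on at least 3 of 4 arrays of a group were tested. Those at the lowest signal of an array have no order among them. A bound divides the mean of the brighter group by the mean, over the dim arrays, of the faintest signal still well above background (or of the probe itself where that is higher).

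The test was limma 3.58.1 in R 4.3.3 (lmFit, eBayes) on all 16 arrays with group and slide as terms, 11 residual and 2.54 prior degrees of freedom, two-sided, with Benjamini-Hochberg adjustment over all tested probes; it was tested on simulated data. Names came from the files and, for names alone, RefSeq genes of ARS-UCD2.0: 7187 probes have a symbol. In gene lists the brightest tested probe stood for a gene. Named genes were the called probes with a symbol and no overlap between groups that had the 20 highest and the 20 lowest differences, every called list member, and a panel of luteal, prostaglandin and chemokine genes; 1 of them is not reported here. Members and lists were chosen with earlier results of these data known, and after the files were read MIC1 and names matched by a prefix alone were taken out of lists. Replicate numbers come from the titles. The correlations of deviations between same-numbered P40-45 and cyclic cows were 0.198, 0.154, 0.070 and 0.090, so the numbers were not taken as pairs. All sample columns were mapped.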

Additional observations from a re-analysis of the deposited data

Results flagged for a closer look

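Groups of 4 were searched for a cow far from the other 3, in 134 groups of levels (67 named genes, P40-45 and cyclic); chance gives about 1 in 20, and 8 were found. In P40-45 glands these were FST in replicate 4, at 1.41 beside 2.27 to 2.43 in the others, and PTGER3 in replicate 1, at -0.66 beside -1.64 to -1.499. In cyclic glands these were ASIP in replicate 2, at -6.63 beside -0.87 to -0.73, and ESR2 in replicate 3, at -7.14 beside -6.40 to -6.35. Cyclic replicate 1 stood apart for AURKB, at -1.09 beside -2.02 to -1.96, and for SERPINA1, at -9.39 beside -8.18 to -7.94, all of them under background. SLC26A10 in cyclic replicate 3 was at -4.25 beside -5.25 to -5.16, and ADAMTSL3 in cyclic replicate 2 was at -3.70 beside -2.19 to -2.04.

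Between stages of pregnancy 4 differences of named genes measured above background in at least 1 of the groups passed limma's test. OXT differed by -3.27 between days 40-45 and days 20-25 (adjusted p = 0.0356) and by -3.92 between days 150-160 and days 40-45 (adjusted p = 0.00887). PTGER3 differed by 3.23 (adjusted p = 0.0363) between days 40-45 and days 20-25. CLDN10 differed by 2.99 between days 150-160 and days 40-45 (adjusted p = 0.00887).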

How the results depend on the processing

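All 62 called named genes kept the sign of their difference under each of the 33 alternatives in which they were tested. They were named because they were called on these arrays, most of them also because their groups did not overlap. Their sign could thus hardly change, and its keeping is not separate support. With a filter that asked for all 4 arrays of a group, 63 of the 67 named genes were tested. Of the 62, 23 kept their call without any 1 array, and 13 under every alternative other than the tests within 1 slide. The count of 215 called probes (107 higher, 108 lower, 145 at least 2-fold) ranged from 58 to 292 with 1 array left out (26 to 141 higher, 32 to 151 lower, 50 to 176 at least 2-fold). It was 51 within slide 1 (27 higher, 24 lower, 51 at least 2-fold) and 12 within slide 2 (4, 8 and 12), fits with 4 residual degrees of freedom. With the 8 arrays of the compared groups alone it was 72 with the slide block (35, 37 and 60) and 73 without it (34, 39 and 64). Without the slide block on all arrays it was 147 (64 higher), without a filter on dim probes 142 (64 higher), and with normexp background, scaled or quantile normalized, 87 probes were at least 2-fold changed in each case. The replicate number as a replicate block gave 199 calls, 162 of them among the 215, and 3 of 4 P40-45 and 2 of 4 cyclic cows correlated best with their own number. Within slide 2 the differences of STAR and PTGFR, not called in any case, reversed to -0.141 and -0.0828. Signals under background limit the falls of ASIP, CATHL1, CATHL3, CATHL4, DEFB4A, TAFA4, ESR2, MYB and CD38 to bounds. The same holds for the rises of CCL11, SERPINA1 and CLDN10.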

Other observations

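Of the 215 called probes, 100 have no gene symbol. A few of those with a description are given here, chosen after their values were seen. The probe described as hemoglobin epsilon 1 had a fitted difference of -3.90 (limma adjusted p = 0.0232); its groups overlapped, and it was well above background in 1 of 4 P40-45 and 3 of 4 cyclic glands. A probe that the files give as an IgG heavy chain was well above background in 0 of 4 P40-45 and 4 of 4 cyclic glands and at least 2.79-fold lower (adjusted p = 0.00777). A probe of an immunoglobulin lambda constant region changed by -2.60 (adjusted p = 0.0135). The probe similar to dickkopf homolog 1 was well above background in 4 of 4 P40-45 and 0 of 4 cyclic glands and at least 2.54-fold higher (adjusted p = 0.0454). The probe similar to a neurotrophic tyrosine kinase receptor was so in 4 of 4 P40-45 and 1 of 4 cyclic glands, with a fitted difference of 2.25 (adjusted p = 0.0432), and the one similar to asporin rose by 1.92 (adjusted p = 0.0262).

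Some called genes outside the naming rule are given here, chosen after their values were seen. UCP2, a mitochondrial carrier, changed by -1.34 (adjusted p = 0.0326), HSDL2, a hydroxysteroid dehydrogenase-like protein of peroxisomes, by -1.15 (adjusted p = 0.0135), NNT, the mitochondrial transhydrogenase, by -0.62 (adjusted p = 0.0476) and CYP27B1, which activates vitamin D and was well above background in 2 of 4 P40-45 and 4 of 4 cyclic glands, by -1.64 (adjusted p = 0.0270). ACSM1 and ACSS1, acyl-CoA synthetases, rose by 1.04 and 0.92 (limma adjusted p = 0.0176 and 0.0169). ACSM1 was also higher on days 150-160 than on days 40-45, by 1.29 (adjusted p = 0.0213). MPEG1 and TIMD4, genes of macrophages, changed by -1.59 and -1.53 (adjusted p = 0.0390 and 0.0353).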
